A study of Rattus norvegicus with 24 samples.

Results

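The genes described here encode the proteins of the cytosolic ribosome, taken as every probe set of both arrays whose single gene symbol in the array annotation begins with Rpl or Rps and a number, or is Rplp0, Rplp1, Rplp2 or Rpsa. S6 kinases (Rps6k symbols, 12 probe sets) and 1 pseudogene were left out. This gave 55 probe sets for 47 genes among 31142 probe sets that are not controls (single-symbol probe sets covered 13810 genes). Of these, 50 were on the array RAE230A and 5 on RAE230B, and 38 (33 genes) encoded proteins of the large subunit with its stalk and 17 (14 genes) proteins of the small subunit. Rplp1 and Rplp2 had no probe set with a single symbol. A further 38 probe sets carry a ribosomal symbol together with others, so they were not counted as members and are given below as a set of their own.

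RNA was taken from the left kidney of male rats belonging to 3 strains. S is the Dahl salt-sensitive strain SS/jr, and ET3x1 and ET3x2 are congenic substrains. From general knowledge of such strains, they carry alleles of a salt-resistant strain on the S background, here around Edn3 on chromosome 3. The salt content of the food was 0.4% NaCl at first, was raised to 2% at an age of 39 to 41 days and was held there for 28 days, so the rats were 67 to 69 days old and no group stayed on the low salt food. Equal amounts of RNA were pooled from 2 rats per S pool and 3 rats per congenic pool, giving 4 pools per strain: A, B, C and D of S, E, F, G and H of ET3x1, and I, J, K and L of ET3x2. In whole kidney RNA, fewer cells of a type and less RNA per cell cannot be told apart. The comparisons ask whether kidney messages for ribosomal proteins differ between the salt-sensitive strain and strains with the substituted segment.

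A cytosolic ribosome is built of a small subunit, which reads the message, and a large subunit, which joins amino acids. Each holds ribosomal RNA and many different proteins, nearly all of them made from a single active gene per protein and needed in equal numbers. Vertebrate messages for these proteins typically begin with a run of pyrimidines, the 5′ terminal oligopyrimidine (TOP) tract, through which mTOR signalling and the protein Larp1 set their translation. That control acts on translation, and the arrays measured the amount of message.

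RefSeq promoters of the assembly GRCr8, each 250 bases before and 50 bases after the annotated start, matched 42 of the 47 genes by symbol. In 12 of the 42 (28.6%) the annotated start was a C followed by at least 4 pyrimidines on the gene's strand, against 2.63% of all 33469 promoters in the table. A run of at least 8 pyrimidines lay within the 30 bases around the start in 24 of 42 (57.1%), against 11.4% of all. The 30-base windows of 9 genes are shown because these genes hold the extremes of the comparisons below or show the tract plainly. Each runs 15 bases to either side of the annotated start, 5′ to 3′ on the gene's strand, with its longest pyrimidine run in capitals.
Rpl35a, chr11:81235007-81235036, minus strand: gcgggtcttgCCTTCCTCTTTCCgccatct
Rps15, chr7:10068101-10068130, minus strand: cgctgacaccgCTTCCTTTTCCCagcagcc
Rplp0, chr12:46718376-46718405, minus strand: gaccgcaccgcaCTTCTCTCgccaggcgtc
Rpl22, chr5:168117946-168117975, plus strand: gtagtgcgCCCCCCTCCCTTTCTgcctcct
Rpl4, chr8:73566462-73566491, plus strand: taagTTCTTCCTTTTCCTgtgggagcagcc
Rpl5, chr14:1995211-1995240, minus strand: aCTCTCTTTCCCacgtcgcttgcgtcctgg
Rpl12, chr3:36661925-36661954, plus strand: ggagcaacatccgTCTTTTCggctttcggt
Rpl3, chr7:113507976-113508005, minus strand: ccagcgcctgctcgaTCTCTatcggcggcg
Rps27l, chr8:76443643-76443672, plus strand: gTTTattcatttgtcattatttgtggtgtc
Rpl35a, Rps15, Rplp0 and Rpl22 meet the rule at the annotated start. In Rpl4 the run covers the annotated start but stops too soon after it to meet the rule, in Rpl5 it ends before the start, and the longest runs of Rpl12, Rpl3 and Rps27l are shorter than 8.

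Over the whole 300 bases and on both strands, the letters CCGGAAG, the core that ETS-family factors bind, were found in 10 of 42 promoters (23.8%, against 8.75% of all). CCATCTT was found in 9 of 42 (21.4%, against 7.01%). TCTCGCGAG was found in 5 of 42 (11.9%, against 0.529%). Such matches describe letters and not binding.

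Most members were measured above the filter on low signal. Values are log2 signal as deposited, a scale inferred from the range of the values. A probe set was tested if its mean over the 12 pools reached the 30th percentile of its array (7.52 on RAE230A, 6.85 on RAE230B), and 49 of the 55 probe sets (43 genes) passed. The 6 that did not were one probe set each of Rpl14, Rpl28, Rpl30 and Rps24, and the only probe sets of Rpl3l, known as a striated muscle paralog, and Rps4y2. Rpl14 and Rps24 each had another probe set that passed, at a mean of 12.59 for Rpl14 and 13.18 for Rps24, while Rpl28 and Rpl30 had none. Because probes differ in how well they bind, the levels are not compared between probe sets. Pools A, B and J stood apart from the other 9 in the actin control, which compares signal from the 5′ and 3′ ends of a message (values further on), so results are also given without these 3 pools.

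No ribosomal protein probe set passed an adjusted p under 0.05 in any of the 3 comparisons by limma with Benjamini-Hochberg adjustment. For ET3x1 against S this was 0 of 49, where 0.44% of all 21799 tested probe sets passed. Between ET3x2 and S the count was 0 of 49 (0.344% of all), while between ET3x2 and ET3x1 it was also 0 of 49 (1.48% of all). The smallest adjusted p among members was 0.170, 0.385 and 0.135 in that order. At shares this low among all probe sets, 0 of 49 is near the background. The differences were also small: the standard error (SE) of a member's difference had a median of 0.088 on the log2 scale, and 95% intervals lay wholly within 0.5 of no difference for 41, 46 and 48 of the 49 members. No interval of a member reached beyond −0.51 or 0.70.

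**Figure D1:**
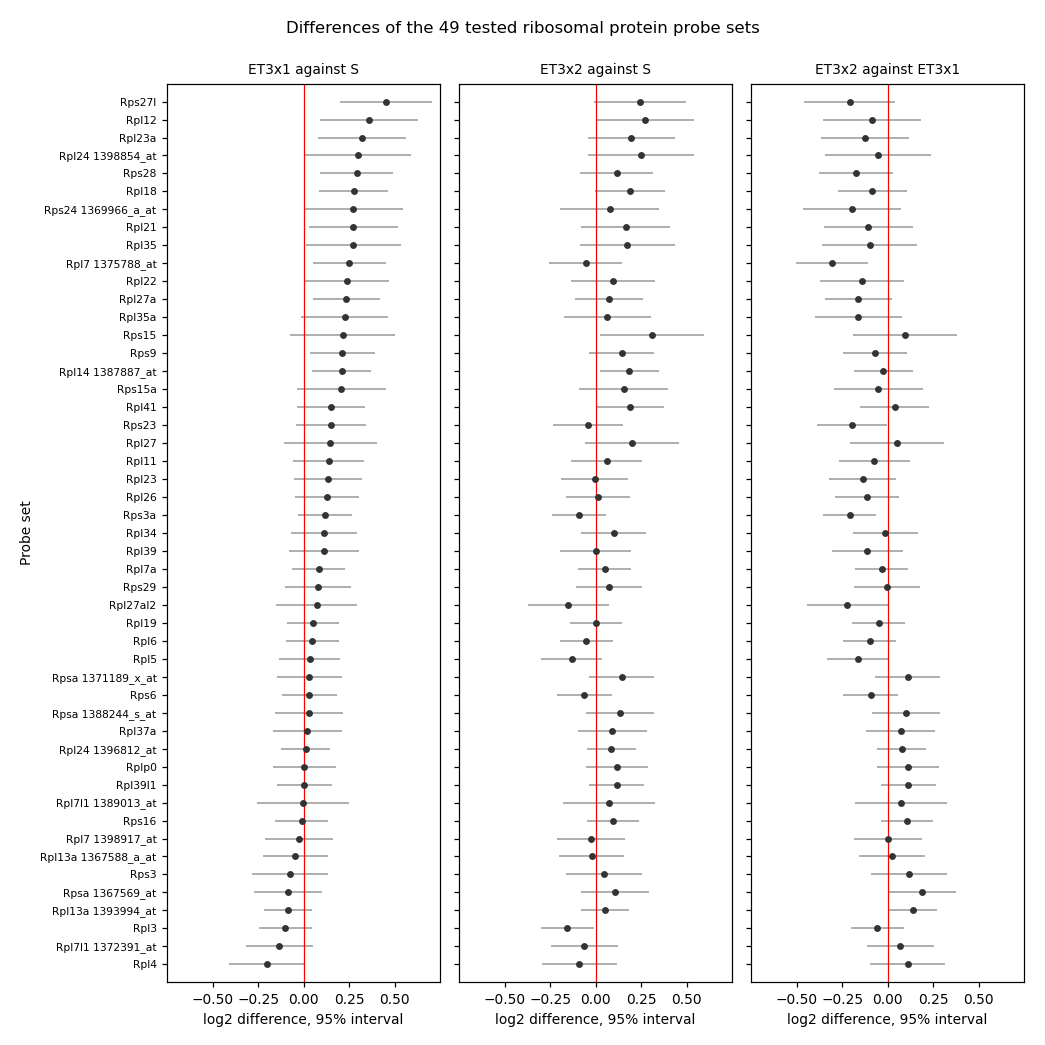
Log2 differences (x axis) of the 49 tested probe sets (y axis, ordered by ET3x1 against S) in the 3 comparisons, with points for estimates and bars for 95% confidence intervals from limma, 4 pools per strain. Most points lie right of 0 in ET3x1 against S (39 of 49) and left of 0 in ET3x2 against ET3x1 (31 of 49), and no member passed after adjustment.

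In ET3x1 against S, most members were on the higher side in ET3x1, by little. The difference was positive for 39 of 49 members (79.6%, against 48.4% of all probe sets tested), with a median of 0.11, where all probe sets had −0.0047. An unadjusted p under 0.05 was reached by 14 members, each higher in ET3x1 (28.6%, against 7.44% of all for that direction and 11.8% for both). For 9 members each ET3x1 pool lay above each S pool (18.4%, against 4.41% of all), and for 0 members each lay below (1.99% of all, 6.4% for both directions). The 9 were Rps27l, Rpl23a, Rpl24, Rps28, Rpl18, Rpl35, Rpl27a, Rps9 and Rpl14. The large subunit (27 of 34 positive, median 0.11) and the small subunit (12 of 15 positive, median 0.12) had like medians. The count of 14 was 7 without S pool A, where 9.38% of all tested probe sets reached such a p, and 7 without S pool B (8.28%). It was 8 without ET3x1 pool G (9.97%), 9 without ET3x1 pool H (9.87%) and 5 without pools A, B and J together. Those 5 are 10.2% of the members. With these pools left out 8.65% of all tested probe sets reached such a p in either direction, so the share was near the background. The S group then rests on pools C and D, and pools A and B had the lowest S averages of the members. A fall of the count in this setting therefore decides nothing. The difference was still positive for 31 of 49 members, against 54.0% of all.

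Rps27l had the highest member difference in ET3x1 against S. It encodes a paralog of the small-subunit protein Rps27 and is known as a p53 target. Its log2 signal in the S pools A to D was 7.68, 7.86, 7.97 and 7.53, in the ET3x1 pools E to H 8.03, 8.16, 8.55 and 8.12, and in the ET3x2 pools I to L 8.05, 7.85, 7.97 and 8.14. The ET3x1 pools lay above all S pools, pool G highest, while the ET3x2 pools overlapped both. The difference between ET3x1 and S was 0.45 (SE 0.12, 1.37-fold, unadjusted p = 0.0017, adjusted p = 0.170), and it was 0.46 without pools A, B and J. Between ET3x2 and S it was 0.24 (adjusted p = 0.452). The mean of the Rps27l probe set over the 12 pools, 7.99, is near the level of the filter (7.52). It lies under the 50th percentile of RAE230A (8.55).

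Rpl12 was next and was also among the highest in ET3x2 against S. Its protein sits at the base of the stalk, where elongation factors bind. The S pools A to D gave 12.31, 12.18, 12.79 and 12.63, the ET3x1 pools E to H 12.72, 12.91, 12.86 and 12.86, and the ET3x2 pools I to L 12.83, 12.47, 12.80 and 12.89. The lowest were pools A and B of S and pool J of ET3x2, and S pool C lay among the congenic pools. The difference from S was 0.36 (adjusted p = 0.263) in ET3x1 and 0.27 (adjusted p = 0.430) in ET3x2. Without pools A, B and J it was 0.13 in both. Of the tested members, 3 are annotated to chromosome 3, Rpl12 among them. All 3 were positive against S, with medians of 0.27 in ET3x1 and 0.17 in ET3x2 (0.11 and 0.076 over all members), and 0 were called. In ET3x2 against ET3x1 0 of the 3 were positive. Whether these genes lie in the substituted segment was not tested.

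Rpl23a, a protein at the exit of the peptide tunnel, followed Rpl12. In S pools A to D its signal was 12.36, 12.14, 12.51 and 12.51, in ET3x1 pools E to H 12.56, 12.71, 12.86 and 12.68, and in ET3x2 pools I to L 12.56, 12.32, 12.58 and 12.84. The ET3x1 pools were all above the S pools, by as little as pool E against pools C and D. The difference was 0.32 (adjusted p = 0.265), and 0.19 without pools A, B and J.

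At the other end of ET3x1 against S were 2 proteins of the core of the large subunit, Rpl4, which lines the peptide tunnel, and Rpl3, near the site of peptide bond formation. Rpl4 gave 12.65, 12.66, 12.75 and 12.61 in S pools A to D, 12.42, 12.74, 12.17 and 12.54 in ET3x1 pools E to H, and 12.58, 12.62, 12.58 and 12.54 in ET3x2 pools I to L. Pool G was lowest and pool F lay within the S range, so the strains overlapped. The difference was −0.20 (adjusted p = 0.394), and it was −0.10 without pool G and −0.29 without pool F. Rpl7l1, a paralog of Rpl7, had −0.13 (adjusted p = 0.516) at one of its probe sets.

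Rpl3 gave 13.36, 13.40, 13.46 and 13.28 in S pools A to D, 13.27, 13.34, 13.16 and 13.33 in ET3x1 pools E to H, and 13.10, 13.27, 13.27 and 13.24 in ET3x2 pools I to L. It was the 1 member whose ET3x2 pools were all below its S pools, as 2.09% of all tested probe sets were. For 0 members each ET3x2 pool lay above each S pool (3.87% of all, 5.95% for both directions). The difference was −0.10 (adjusted p = 0.535) in ET3x1 and −0.16 (unadjusted p = 0.0366, adjusted p = 0.403) in ET3x2. It was −0.17 in ET3x2 without pools A, B and J.

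**Figure D2:**
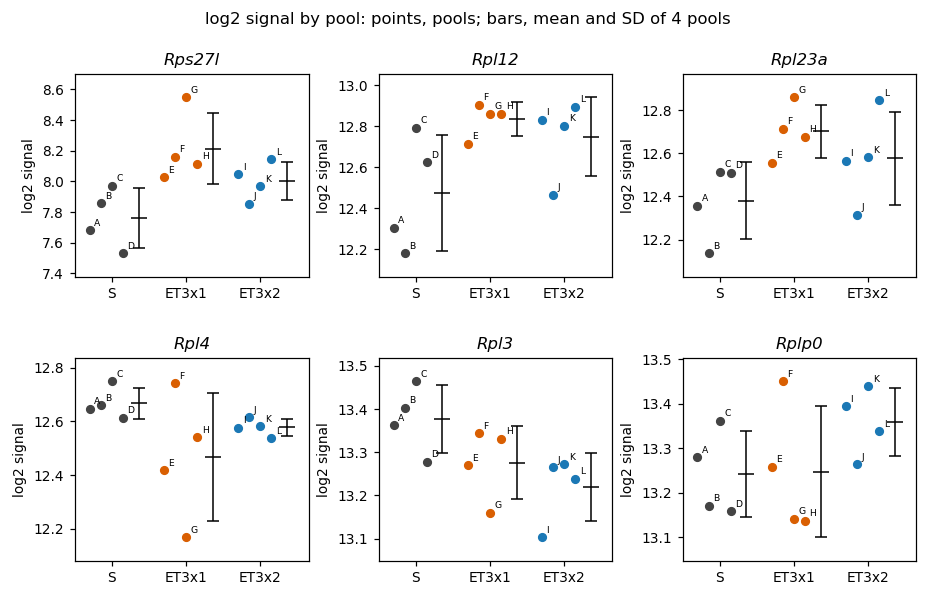
Log2 signal (y axis) of 6 members in the 12 pools, by strain (x axis); points are pools with their letters, and the bar beside each group is its mean and SD, n = 4 pools. Rps27l and Rpl23a have each ET3x1 pool above each S pool, Rpl3 has each ET3x2 pool below each S pool, and Rpl12, Rpl4 and Rplp0 overlap.

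In ET3x2 against S, positive differences were again more frequent, though with all pools the counts of lower p-values were not. The difference was positive for 36 of 49 members (73.5%, against 59% of all), with a median of 0.076 (all probe sets 0.025). An unadjusted p under 0.05 was reached by 5 members (10.2%, against 10.9% of all): Rps15, Rpl12, Rpl14 and Rpl41 were higher (6.89% of all were) and Rpl3 lower (3.98% of all). The count was 0 without S pool A (where 7.44% of all reached such a p), S pool B (9.23%) or ET3x2 pool I (6.94%). It was 2 without pool K (7.20%) or L (9.01%), and 3 without ET3x1 pool E (9.78%) or H (10.2%). Without pool J it was 15 of 49, where 14.2% of all reached such a p, so the members' share was then above the background. Without pools A, B and J together it was 2 (8.47%). Both comparisons with S use the same S pools, so a like direction in both is no repeat.

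Rps15, whose tail reaches the decoding site of the small subunit, was the highest in ET3x2 against S. The S pools A to D gave 12.52, 12.25, 12.94 and 12.74, the ET3x1 pools E to H 12.68, 12.95, 12.86 and 12.82, and the ET3x2 pools I to L 12.96, 12.61, 13.03 and 13.08. S pool C lay within the ET3x2 range, and pool B was lowest. The difference was 0.31 (adjusted p = 0.403), and 0.19 without pools A, B and J. Rpl24, of a bridge between the subunits, followed Rpl12 with 0.25 (adjusted p = 0.511). The lowest after Rpl3 were Rpl27al2, named as like Rpl27a, with −0.15 (adjusted p = 0.656), and Rpl5, which with Rpl11 and 5S RNA can bind Mdm2, with −0.13 (adjusted p = 0.546). The Rpl5 difference was 0.0027 without pools A, B and J.

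In ET3x2 against ET3x1 the members were on the lower side in ET3x2. The difference was positive for 18 of 49 (36.7%, against 60.8% of all) and the median was −0.051, where all probe sets had 0.032. An unadjusted p under 0.05 was reached by 6 members (12.2%, against 13.1% of all), with Rpl7, Rps3a, Rps23 and Rpl27al2 lower (6.39% of all) and Rpsa and Rpl13a higher (6.71% of all) in ET3x2. In 3 members the strains did not overlap (6.12%, against 9.15% of all), with Rpl7 and Rps3a lower (4.18% of all) and Rpl13a higher (4.96% of all). The median turned to 0.0065, with 27 of 49 positive, without pool J alone. It was still below that of all tested probe sets, which was then 0.036, with 62.1% positive. All these values were the same without pools A, B and J. The count of 6 was 13 without pool L (where 15.0% of all reached such a p) and 2 without pool I (9.65%). It was 3 without S pool C (12.5%), pool H (11.7%) or pool K (9.45%).

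Rpl7, a large-subunit protein, had the lowest value in ET3x2 against ET3x1 at 1 of its 2 tested probe sets. That probe set, 1375788_at, gave 7.82, 8.22, 8.13 and 7.89 in ET3x1 pools E to H, 7.66, 7.75, 7.67 and 7.75 in ET3x2 pools I to L, and 7.80, 7.92, 7.62 and 7.72 in S pools A to D. Each ET3x2 pool lay below each ET3x1 pool, and the difference was −0.31 (unadjusted p = 0.0049, adjusted p = 0.135). The other Rpl7 probe set, 1398917_at, had a difference of 0.0003 (adjusted p = 0.999), so the 2 disagreed. The mean of 1375788_at, 7.83, is near the level of the filter.

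Rps3a, of the small subunit, had each ET3x2 pool below each ET3x1 pool as well. Its signal was 13.77, 13.91, 13.83 and 13.90 in pools E to H, 13.64, 13.49, 13.76 and 13.68 in pools I to L, and 13.70, 13.66, 13.81 and 13.76 in S pools A to D. The gap between the strains was as small as pool K against pool E, and the difference was −0.21 (SE 0.069, adjusted p = 0.167). Rpl27al2 had −0.22 (adjusted p = 0.450), and −0.13 without pool F. Rps27l had −0.21 (adjusted p = 0.418), and −0.098 without pool G, its highest pool.

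On the higher side in ET3x2 against ET3x1 were Rpsa, Rpl13a and Rps3. Rpsa, a small-subunit protein also known as the laminin receptor precursor, gave 13.60, 13.52, 13.50 and 13.35 in S pools A to D, 13.37, 13.59, 13.33 and 13.35 in pools E to H, and 13.75, 13.69, 13.55 and 13.40 in pools I to L at probe set 1367569_at. ET3x1 pool F lay among the ET3x2 pools. The difference was 0.19 (adjusted p = 0.317), and the other 2 Rpsa probe sets had 0.10 and 0.11. Rpl13a, which also takes part in silencing of inflammatory messages, had 0.14 (adjusted p = 0.425) at its RAE230B probe set. Rps3, at the entry of the message channel, had 0.12 (adjusted p = 0.590).

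The stalk and the S6 kinase target showed no difference that passed. Rplp0, the stalk protein often used as a reference gene, gave 13.28, 13.17, 13.36 and 13.16 in S pools A to D, 13.26, 13.45, 13.14 and 13.14 in ET3x1 pools E to H, and 13.39, 13.26, 13.44 and 13.34 in ET3x2 pools I to L. All 3 strains overlapped, and the differences were 0.0044 for ET3x1 minus S, 0.12 for ET3x2 minus S and 0.11 for ET3x2 minus ET3x1, with adjusted p of 0.989, 0.612 and 0.538. Rps6, the target of S6 kinase, had 0.032, −0.062 and −0.094 in that order. Rpl22 had 0.24, 0.095 and −0.14, and Rpl39, of the peptide tunnel, 0.11, 0.0002 and −0.11. The smallest adjusted p among Rps6, Rpl22 and Rpl39 was 0.369, for Rpl22 in ET3x1 against S.

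Where a gene had more than 1 tested probe set, they did not always give the same difference. The widest gap in ET3x1 against S was in Rpl24, with 0.30 at 1398854_at (RAE230A) and 0.011 at 1396812_at (RAE230B), the second at a mean of 7.52. Rpl7l1 had −0.13 and −0.0014 in the same comparison. In ET3x2 against S, Rpl7l1 had −0.064 and 0.072 and Rpl13a −0.022 and 0.052. None of these differences passed.

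The members varied together across the pools. Each probe set was set against its own mean over 12 pools, and the deviations of the 49 members were averaged per pool. The averages were −0.082, −0.158, 0.050 and −0.056 in S pools A to D, −0.0055, 0.096, 0.048 and 0.067 in ET3x1 pools E to H, and 0.015, −0.141, 0.046 and 0.120 in ET3x2 pools I to L. Pools B, J and A were the lowest and pool L the highest, and all 3 strains overlapped. By strain this was −0.061 ± 0.086 in S, 0.051 ± 0.043 in ET3x1 and 0.010 ± 0.110 in ET3x2 (SD, n = 4 pools). Over all tested probe sets the same average stayed between −0.066 (pool D) and 0.053 (pool F). The 3 low pools thus hold 2 of the 4 S pools and 1 of the 4 ET3x2 pools.

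**Figure D3:**
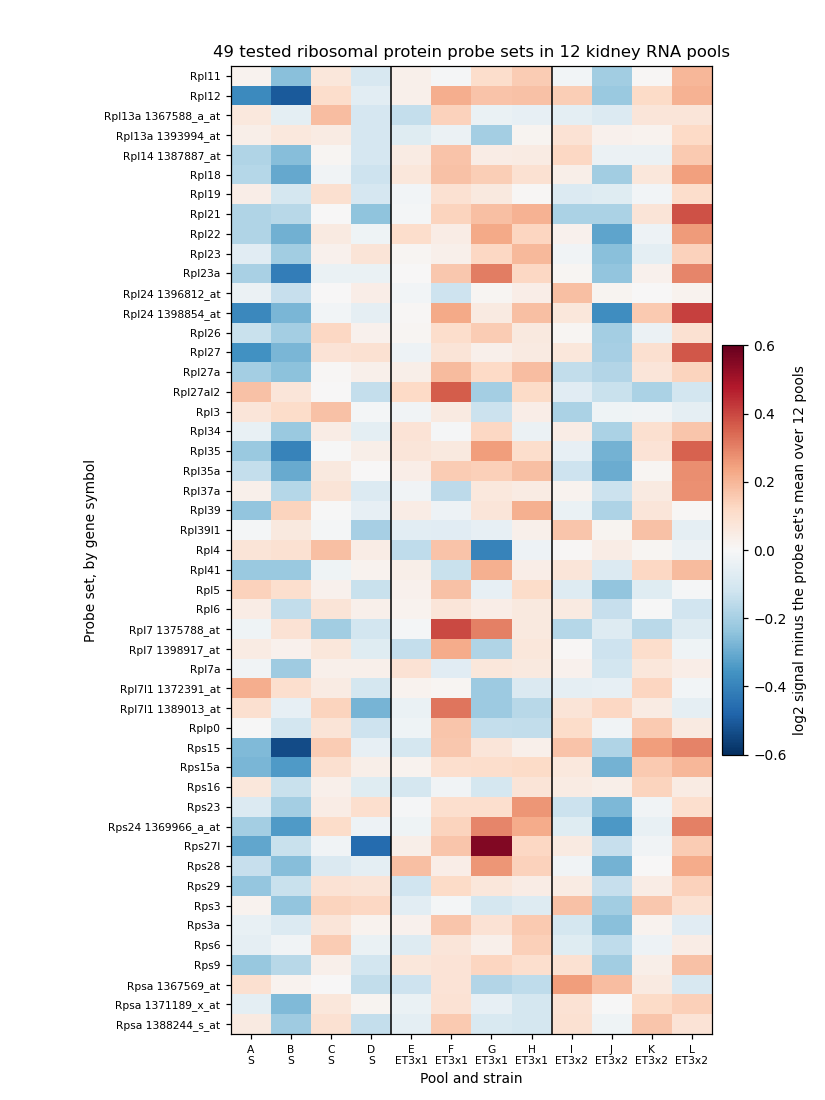
Log2 signal of the 49 tested probe sets (rows) in the 12 pools (columns, by strain), each minus the probe set's own mean over the pools, red higher and blue lower. Pools A, B and J are blue in many rows: in 35 of the 49 the lowest pool is 1 of these 3.

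Pools A, B and J were the 3 lowest pools in 17 of 49 members (34.7%, against 4.28% of all tested probe sets), and the lowest pool was 1 of these 3 in 35 of 49 (71.4%, against 27.1%). Rpl12, Rpl35, Rpl22 and Rps24 were among the members with this order. Rpl3, Rpl4 and Rpsa 1367569_at were not: in pools A, B and J, Rpl4 gave 12.65, 12.66 and 12.62, near or above its mean of 12.57. All 17 were among the 40 members with a mean signal of 11 or more (42.5%), and 0 among the 9 with less. The lowest pool was A, B or J in 82.5% of the 40 and in 22.2% of the 9. The shares over all tested probe sets are not matched to the members for signal. Across the 12 pools the mean correlation between 2 members was 0.31, against 0.037 between tested probe sets in general, and it was 0.18 without pools A, B and J. Probe sets of 1 pool share its RNA and its arrays, so the correlation is a description.

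Pools A, B and J also had the highest actin control signal from the 5′ end relative to the 3′ end, at −1.27, −1.27 and −1.14 on RAE230A, against −2.10 to −1.66 in the other 9. The like control for the GAPDH message did not set pools A and B apart. On RAE230A it gave −0.81, −0.75 and −0.64 in A, B and J, against −1.04 (pool G) to −0.71 (pool F) in the other 9. Proximal tubule markers (7 of 7 genes tested, 0 called) were highest in pools A, B and J. Their mean deviation was 0.124, 0.196 and 0.185 in A, B and J, and it ranged from −0.20 to 0.20 in S, −0.20 to 0.054 in ET3x1 and −0.079 to 0.185 in ET3x2. Other marker lists were above their own mean in these pools too: collecting duct markers had 0.071, 0.213 and 0.143 in A, B and J, blood markers 0.047, 0.182 and 0.186, and markers of the thick limb and distal tubule 0.080, 0.145 and 0.092. They were not high in these pools alone, since ET3x1 pool F had 0.137 for the collecting duct and 0.203 for the thick limb and distal tubule. The part of the actin control or of any of these lists in the members' differences was not tested. Without the 3 pools the median member difference was 0.041 in ET3x1 against S (31 of 49 positive, where 54.0% of all tested probe sets were), 0.071 for ET3x2 minus S and 0.0065 for ET3x2 minus ET3x1. With the actin control as a covariate the 3 medians were 0.063, 0.084 and 0.0057. Over all tested probe sets the medians were 0.011, 0.043 and 0.036 without the 3 pools. They were 0.0024, 0.023 and 0.021 with the covariate.

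**Figure D4:**
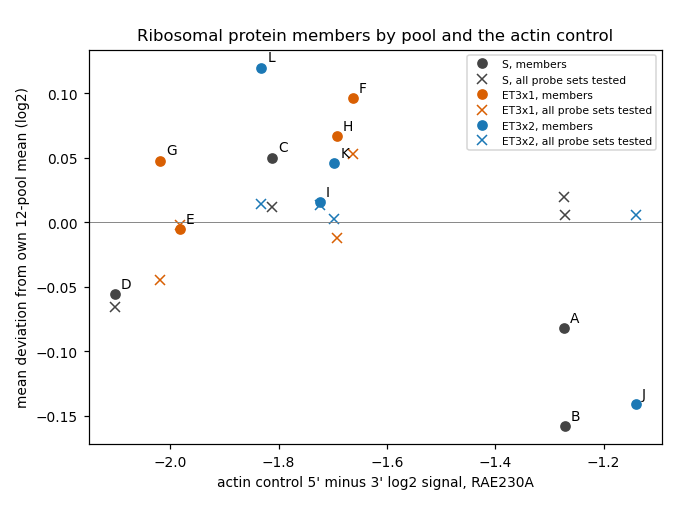
Mean deviation of the 49 members (dots) and of all 21799 tested probe sets (crosses) from their own 12-pool means (y axis, log2) against the actin 5′ minus 3′ log2 signal of the pool (x axis), coloured by strain. Pools A, B and J lie at the right with member values of −0.082, −0.158 and −0.141, while the crosses there lie near 0.

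The probe sets that carry a ribosomal symbol along with others had differences of the same sign as the members. Of 37 tested, 0 were called in any comparison, and 36 were higher in ET3x1 than in S (median 0.16). Another comparison, ET3x2 against S, also had 36 higher (median 0.15), and ET3x2 against ET3x1 had 11 higher (median −0.071). Of all tested probe sets 48.4%, 59% and 60.8% were higher in the 3 comparisons. An unadjusted p under 0.05 was reached by 14, 8 and 1 of the 37, against 11.8%, 10.9% and 13.1% of all. Their signal cannot be assigned to 1 gene.

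Members were also described by whether their annotated start shows the TOP tract. In ET3x1 against S the 11 tested probe sets of such genes had a median of 0.12, from 0.0044 to 0.27, and the 33 of genes without it had 0.071, from −0.20 to 0.45. In ET3x2 against S the medians were 0.095 and 0.073. Other genes known for TOP messages, such as elongation factors, had 21 probe sets tested for 13 of 18 genes, with 0 called and medians of −0.0002, 0.047 and 0.086 in the 3 comparisons. Rack1, a small-subunit protein outside the symbol rule, had −0.10, 0.053 and 0.16 and was not called.

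Genes that make or regulate ribosomes were measured next to the members. Ribosome biogenesis genes (47 genes, 66 probe sets) had medians of 0.014, 0.015 and 0.0099, with 9, 4 and 15 probe sets at an unadjusted p under 0.05 (11.8%, 10.9% and 13.1% of all tested). Of the 66 probe sets 1 was called, for Wdr75, of the complex that processes small-subunit RNA. It was lower by 0.43 in ET3x2 than in ET3x1 (SE 0.096, adjusted p = 0.0344). In that comparison 1.48% of all tested probe sets were called, so 1 of 66 is near the background. The mean of the Wdr75 probe set lies under the 50th percentile of RAE230B, so its signal is on the low side. The Wdr75 call ended without pool C (adjusted p = 0.055), E (0.0624), G (0.0912), H (0.0849), I (0.117), K (0.117) or L (0.103). The difference there lay between −0.36 and −0.47. The mTOR and S6 kinase list (22 genes, 33 probe sets) had 0 called, with 4, 0 and 5 probe sets at an unadjusted p under 0.05.

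Proteins of the mitochondrial ribosome, which are encoded in the nucleus and form a separate ribosome, were described by the same counts. Over 98 probe sets for 73 genes the medians were 0.14 (ET3x1 minus S), 0.18 (ET3x2 minus S) and 0.029 (ET3x2 minus ET3x1), with 0 called. Positive were 81, 94 and 59 of the 98, against 48.4%, 59% and 60.8% of all tested probe sets. An unadjusted p under 0.05 was reached by 22, 28 and 11, against 11.8%, 10.9% and 13.1% of all. In ET3x2 against ET3x1 both counts were near these shares. Pools A, B and J were low here too, with mean deviations of −0.135, −0.277 and −0.119. The difference between both kinds of ribosome was not tested.

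The tissue matched its label by its markers. Umod of the thick limb, Slc34a1 and Lrp2 of the proximal tubule and Aqp2 of the collecting duct were all well above the filter, and the muscle and adrenal markers Acta1, Ckm, Myh4, Cyp11b1 and Star were below it. Plasma cell markers were 1 called gene of 6 (Jchain, higher in both congenic strains than in S), T and B cell markers 0 called of 6, and collecting duct markers 1 of 5. That gene was Atp6v1b1, higher in ET3x1 than in S by 0.33 (adjusted p = 0.0483), and it was the 1 of 7 collecting duct probe sets with a positive difference there. The list's median was −0.15, with 3 of 7 at an unadjusted p under 0.05. The Atp6v1b1 call ended without any 1 pool except G, where the difference stayed between 0.30 and 0.36, and without pools A, B and J (0.32, adjusted p = 0.257). In ET3x1 against S, 0.44% of all tested probe sets were called, and both Jchain probe sets were. In ET3x2 against S, 0.344% of all were called, and 1 of the 2 Jchain probe sets was. The plasma cell list had 5 of 8 probe sets positive in ET3x1 against S (median 0.083) and 7 of 8 in ET3x2 against S (median 0.11). The difference of the called Jchain probe set in ET3x2 was 1.21 with all pools. It was 1.21 without pools A, B and J, where the call ended (adjusted p = 0.118). In ET3x1 one Jchain probe set kept its call without these pools, while the second went from 0.50 (adjusted p = 0.0104) to 0.46 (adjusted p = 0.0866). Their part in the members' differences was not tested.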

How the data were processed

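Log2 signals of 12 kidney RNA pools on the Affymetrix arrays RAE230A and RAE230B (24 arrays) were used as deposited by the authors. The log2 scale was inferred from the values. Array summarisation and normalisation are not given in the sources used here. Per the labels, cDNA was primed with oligo(dT), and such arrays favour the 3′ ends of messages. Arrays give no read depth, and their number limits the precision.

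Control probe sets and those with a mean under the 30th percentile of their array were left out. Linear models (limma 3.58.1, lmFit and eBayes with a trended prior, R 4.3.3) were fitted per array over all 12 pools without covariates. P-values are two-sided and were adjusted within array and comparison (threshold 0.05). The fit was tested on simulated data. Pools are of different rats, so p-values measure the spread between pools. Members and gene lists were chosen with earlier results of these data known. Named were, per comparison, called members, the 3 highest and 3 lowest by log2 difference, fixed members, the genes whose probe sets differed most, and called genes of the lists. The fixed members were Rplp0, Rplp1, Rplp2, Rpsa, Rps6, Rpl3, Rps3, Rpl22, Rpl22l1, Rps27, Rps27l, Rpl39, Rpl39l, Rpl3l and Rps4x, of which Rplp1, Rplp2, Rpl22l1, Rps27, Rpl39l and Rps4x had no single-symbol probe set and Rpl3l was below the filter. Rps24, Rpl35, Rps3a and members listed by group overlap or unadjusted p were named after their values were seen. Symbols are those of the array annotation. Of the members, 53 probe sets matched RefSeq by gene identifier, with no change of symbol. Figures used matplotlib.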

Additional observations from a re-analysis of the deposited data

Results flagged for a closer look

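Each group of 4 pools was searched for a pool whose gap to the nearest other, as a share of the group's range, exceeded Dixon's 95% critical value for 4 samples. Of 75 groups, of named members and of the members' average per pool, 3 met this, where chance gives about 1 in 20. Rpl24 probe set 1396812_at had 7.70 in ET3x2 pool I, with the other 3 pools at 7.52 to 7.54. Rps6 had 13.83 in S pool C, with the others at 13.62 to 13.66. Rpsa probe set 1388244_s_at had 12.50 in ET3x1 pool F, with the others at 12.23 to 12.28. None of these members passed the test in any comparison.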

How the results depend on the processing

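Over 25 alternatives the count of members past an adjusted p of 0.05 stayed at 0 in each comparison, except that estimated array weights gave 1 in ET3x2 against ET3x1 (Rpl27al2, −0.26, adjusted p = 0.0394). The median difference kept its sign in ET3x1 against S (0.041 to 0.144) and in ET3x2 against S (0.035 to 0.131). In ET3x2 against ET3x1 it ranged from −0.091 to 0.0065 and turned positive without pool J, without pools A, B and J, and with the actin covariate. In these settings the median of all tested probe sets was higher, at 0.036, 0.036 and 0.021. Leaving out 1 pool, the count at an unadjusted p under 0.05 was 7 to 17, 0 to 15 and 2 to 13 in the 3 comparisons. The share of all tested probe sets at such a p was then 8.28% to 17.4%, 6.94% to 15.5% and 9.45% to 16.2%. No paired analysis was possible because the pools carry letters of their own and share no number between strains.

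Of 56 named values, 16 changed sign somewhere, each of them small and not past the threshold. In ET3x1 against S, Rplp0 was −0.025 with quantile normalisation, −0.052 with array weights and −0.013 without pools A, B and J. Rps6 was −0.0040, −0.0062 and −0.015 under the same 3 settings. Rpsa 1388244_s_at was −0.0056 with quantile normalisation and −0.038 with array weights. With the actin covariate and without pools A, B and J, Rpsa 1371189_x_at was −0.011 and −0.071, Rpl7l1 1389013_at 0.062 and 0.045, and Rpl24 1396812_at −0.011 and −0.043. In ET3x2 against S, Rpl39 was −0.019 both with quantile normalisation and with centred arrays, Rps3 −0.025 with quantile normalisation, and Rpl5 0.0027 and Rpl7l1 1372391_at 0.047 without pools A, B and J. In ET3x2 against ET3x1, Rpl24 1398854_at was 0.016 with array weights, 0.063 with the actin covariate and 0.095 without pools A, B and J, and Rpl7 1398917_at was −0.0053 with quantile normalisation, −0.017 with centred arrays and −0.023 with the actin covariate.

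Leaving out 1 pool, values that changed sign ranged in ET3x1 against S from −0.063 to 0.044 (Rplp0), −0.0025 to 0.079 (Rps6), −0.037 to 0.075 (Rpsa 1371189_x_at), −0.031 to 0.078 (Rpsa 1388244_s_at), −0.12 to 0.063 (Rpl7l1 1389013_at), −0.10 to 0.030 (Rpl7 1398917_at) and −0.025 to 0.045 (Rpl24 1396812_at). In ET3x2 against S they ranged from −0.066 to 0.058 (Rpl39), −0.038 to 0.13 (Rps3), −0.062 to 0.033 (Rpl13a 1367588_a_at) and −0.012 to 0.13 (Rpl7l1 1389013_at). In ET3x2 against ET3x1 they ranged from −0.016 to 0.078 (Rpl13a 1367588_a_at), −0.16 to 0.095 (Rpl24 1398854_at) and −0.057 to 0.077 (Rpl7 1398917_at). Some values kept their sign and still moved by over 1.5 times: Rps15 in ET3x2 against S ranged from 0.19 to 0.42, Rpl12 there from 0.17 to 0.38, and Rpl3 in ET3x1 against S from −0.13 to −0.062. The cause of these changes was not tested.

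With 4 pools per strain, differences under about the width of the intervals given above could not be shown, and signals near the filter carry an unknown background.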
